A study of Mus musculus with 18 samples.

Results

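The expression of imprinted genes was examined in mouse embryonic stem (ES) cells grown in 3D culture. The genes were 48 mouse genes known to be imprinted, listed by symbol in 19 clusters or single loci, and a listed gene was taken as a member where its row of the count table, matched by Ensembl identifier on GRCm38, held 10 or more counts over the 18 samples. This left 46 members of the 48 listed, beside 23575 rows of 49671 that passed the same minimum. Slc22a2 had 1 count and Kcnk9 had 0 counts in all samples together, and neither is described further. Of the 48 listed genes, 24 were classed as expressed from the maternal and 24 from the paternal copy, and 12 of the 19 loci hold more than 1 listed gene. These classes were taken with the list, and which copy these ES cells express was not measured.

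An imprinted gene is transcribed mainly from the copy inherited from a given parent. At many loci, but not all, the difference is set by DNA methylation laid down in the egg or sperm at an imprinting control region. This region then acts on neighbouring genes, often through a long noncoding RNA such as H19, Airn, Kcnq1ot1, Meg3 or Nespas. The methylated copy is protected after fertilisation by factors such as Zfp57 and Trim28, and ES cells kept in culture, in 2i in particular, are known for gain or loss of methylation at these regions. The counts used here do not separate the parental copies, so they give the summed level of a gene and not its imprint.

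The samples fell into 6 groups of 3. In 4 groups, wild-type E14 ES cells at passage 20 had been embedded in Matrigel and kept for 48 h in N2B27 medium with DMSO (the solvent control), with 3 µM CHIR99021 (CH, which blocks GSK3 and thereby turns on the Wnt/β-catenin pathway), with 2i (3 µM CHIR99021 and 0.4 µM of the MEK inhibitor PD0325901), or with Fgf2 (12 ng/ml) together with Activin A at 20 ng/ml (Fgf2/Activin). In the other 2 groups, Esrrb fl/fl ES cells carrying a tamoxifen-inducible Cre (MerCreMer), labelled with an Acr-EGFP transgenic strain and at passage 25, were grown in Matrigel in 3 µM CHIR99021 for 24 h. They had either been given 4-hydroxytamoxifen (4OHT) 1 day before the 3D culture to delete Esrrb (Esrrb null) or not (Esrrb floxed). No group was given 4OHT without floxed Esrrb, so effects of 4OHT or of active Cre cannot be told apart from the deletion. All cells had before been kept in 2i with 4 ng/ml Lif on gelatine. The 2 lines differ in origin, passage, time in culture and depth, which cannot be told apart, so each comparison was made within a line. The labels do not say whether samples of a group came from separate cultures, and the p-values then measure only the spread between these samples.

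Poly(A) RNA was sequenced, and the values are counts of reads per gene. The total count per sample lay between 25388139 and 37158661 in the wild-type cultures and, in the cells with floxed or deleted Esrrb, between 19915222 and 20140699. Levels are given as CPM, counts relative to library size, scaled by TMM over the 18 samples, in the order of replicates 1 to 3. Markers of pluripotent cells were present in every group. Pou5f1 ranged from 535 to 1232 CPM over the 18 samples and Sall4 from 143 to 351 CPM. Of the 6 fibroblast markers, Col1a1, Col3a1, Lum and Twist2 stayed below 1 CPM in all samples, and of the 7 trophoblast markers Tpbpa was at 0, while Elf5 and Hand1 stayed below 1 CPM. Esrrb, the deleted gene, was at 138, 108 and 107 CPM in Esrrb floxed and 58.1, 63.2 and 59.3 CPM in Esrrb null cells (log2 fold change -0.99 ± 0.10 (SE), adjusted p = 7.44e-05). It was lower in all 3 Esrrb null samples and did not pass the minimum fold change.

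Promoter sequence is shown first for 6 genes called in at least 1 comparison of the wild-type cultures, chosen after their values were seen, to print the letters in front of genes described below. Each stretch is the longest without an annotated exon in the 250 bases before a RefSeq start site of the GRCm38 mouse genome. It reaches the start in 4 of the 6 genes and ends 12 bases before it in Peg3 and 141 bases before it in Plagl1, where exons of other annotated transcripts lie between. The stretches are written 5′ to 3′ on the strand of the gene. Capitals mark TGCCGC or its reverse complement GCGGCA, the letters bound by Zfp57 when methylated.
Plagl1, chr10:13090582-13090690, plus strand: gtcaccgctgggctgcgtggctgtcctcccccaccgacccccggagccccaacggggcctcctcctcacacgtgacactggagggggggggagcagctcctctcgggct
Sfmbt2, chr2:10370201-10370450, plus strand: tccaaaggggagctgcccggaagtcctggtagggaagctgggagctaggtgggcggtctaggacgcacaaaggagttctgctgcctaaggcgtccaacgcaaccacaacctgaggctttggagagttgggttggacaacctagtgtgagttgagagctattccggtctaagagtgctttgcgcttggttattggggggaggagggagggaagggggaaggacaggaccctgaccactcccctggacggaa
Peg3, chr7:6730432-6730577, minus strand: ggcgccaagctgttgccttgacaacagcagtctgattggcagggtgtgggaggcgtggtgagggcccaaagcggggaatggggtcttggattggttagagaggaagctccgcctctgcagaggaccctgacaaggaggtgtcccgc
Nap1l5, chr6:58907127-58907261, minus strand: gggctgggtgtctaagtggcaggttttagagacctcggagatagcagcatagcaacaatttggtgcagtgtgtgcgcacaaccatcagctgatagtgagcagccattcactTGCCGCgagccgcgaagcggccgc
Slc22a3, chr17:12507705-12507954, minus strand: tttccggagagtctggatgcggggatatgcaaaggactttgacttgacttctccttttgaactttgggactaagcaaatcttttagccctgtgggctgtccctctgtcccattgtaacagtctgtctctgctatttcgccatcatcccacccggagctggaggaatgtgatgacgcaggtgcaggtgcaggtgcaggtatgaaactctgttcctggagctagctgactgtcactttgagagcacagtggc
Dlk1, chr12:109452573-109452822, plus strand: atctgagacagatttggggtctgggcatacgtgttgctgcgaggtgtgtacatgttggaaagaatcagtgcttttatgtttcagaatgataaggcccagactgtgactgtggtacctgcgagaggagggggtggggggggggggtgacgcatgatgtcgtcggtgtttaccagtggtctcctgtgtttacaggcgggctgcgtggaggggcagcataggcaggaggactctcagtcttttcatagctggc
The Peg3 stretch is the interval between the nearest annotated starts of Peg3 and Usp29, which are transcribed in opposite directions, and the Nap1l5 stretch holds the only match among the 6. RefSeq promoter windows, from 250 bases before to 50 bases after a start, were found for 38 of the 48 listed genes (56 windows). TGCCGC or GCGGCA stood in 14 of the 56 windows (25.0%) and in 11.6% of all 32851 windows. The 13 genes with it were Zdbf2, Nnat, Mest, Copg2, Nap1l5, Zim1, Snrpn, Igf2, Plagl1, Grb10, Commd1, Meg3 and Slc22a2; in Plagl1 the letters lie outside the stretch printed. The Tcf/Lef letters CTTTGAT, searched on either strand, were in 0 of the 56 windows and in 3.73% of all windows. The Esrrb half-site AAGGTCA, searched likewise, was in 1 window, that of Meg3 (1.79%), and in 4.72% of all windows. A match is a description of these letters and not a binding site. The median number of CpG pairs per window was 15 in the members and 7 over all genes.

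Per length of transcript, the members covered a wide range of levels. The highest means over the 6 groups, in read counts per exon length and library size (RPKM), were those of Peg10 (72.3), the tetraspanin Cd81 (71.7), Impact (51.0), Snrpn (44.0) and Rian (37.1). Peg10 and Cd81, neighbours in this order, differed by less than their spread over the groups. Peg3 followed with 33.4, Grb10 with 23.5 and Meg3 with 21.8 RPKM. The lowest among those with 10 or more counts were the long noncoding RNAs Kcnq1ot1 (0.0815) and Airn (0.0224). In the smaller loci the leading genes were Mest (17.5), Igf2r (11.2), Zdbf2 (9.99), Blcap (7.15), Sfmbt2 (5.09), Commd1 (4.51), Trappc9 (4.29), Inpp5f (3.24), Plagl1 (1.98), H19 (0.975), Nespas (0.859) and Nap1l5 (0.268). Nespas and Gnas (0.725) share exon bases, whose reads may be missing from both, so their order is uncertain. The members together took 0.231% to 0.626% of all counts of a sample.

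**Figure D1:**
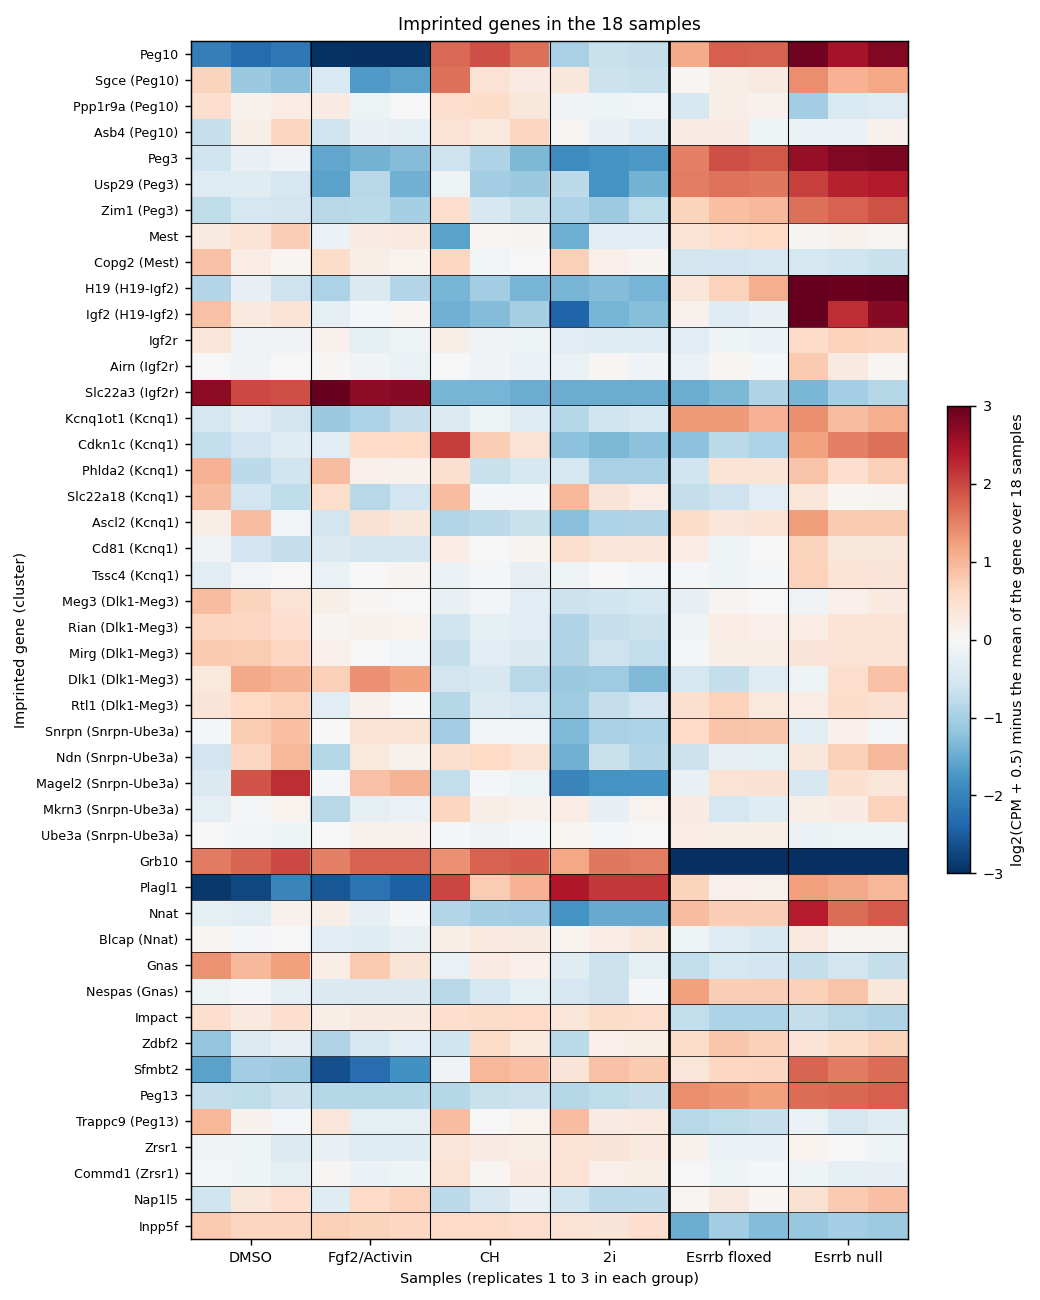
Heat map of the 46 imprinted genes with 10 or more counts (rows, grouped by cluster) in the 18 samples (columns, 3 replicates per group). Colour is log2(CPM + 0.5) minus the mean of the gene over the 18 samples, from -3 (blue) to 3 (red). Grb10, Impact and Inpp5f are red in the wild-type cultures and Peg3, Usp29 and Peg13 in the Esrrb fl/fl cells, and Peg10, Plagl1 and Sfmbt2 are blue in DMSO and Fgf2/Activin.

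The groups were set against each other in 5 comparisons with edgeR's quasi-likelihood test. A call needed an adjusted p (Benjamini-Hochberg, over all genes tested) under 0.01 together with a log2 fold change above 1 or below -1. Of the members, 44 were tested in the wild-type cultures, where Airn and Peg13 were too low, and 44 in the Esrrb fl/fl cells, where Airn and Slc22a3 were too low. Between CH and DMSO, 4 members were called higher and 8 lower, against 7.51% and 10.2% of all 16413 genes tested. Between 2i and CH, 0 were called higher and 2 lower (0.317% and 1.67% of all genes), and between Fgf2/Activin and DMSO, 0 higher and 1 lower (0.902% and 0.347%). Between 2i and Fgf2/Activin, 3 were called higher and 10 lower (9.13% and 14.4%), and for Esrrb null against Esrrb floxed cells, 10 higher and 0 lower (12.8% and 3.87% of 14893 genes). Where edgeR's test called 0 members, DESeq2's test also called 0 in that direction. An unadjusted p under 0.05 in edgeR's test was reached there by 2 members higher between 2i and CH, 3 higher between Fgf2/Activin and DMSO, and 4 lower in Esrrb null cells. The share of all genes at that unadjusted p was not computed, here or below, so such counts cannot be read as many or few. The median log2 fold change of the members was -0.12, -0.35, -0.32, -0.20 and 0.45 in these 5 comparisons in turn, and that of all genes -0.0022, -0.0033, -0.021, 0.0021 and 0.0021. The 4 wild-type comparisons share samples (DMSO, CH, 2i and Fgf2/Activin each enter 2 of them), so their values stand side by side and are not independent of each other.

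**Figure D2:**
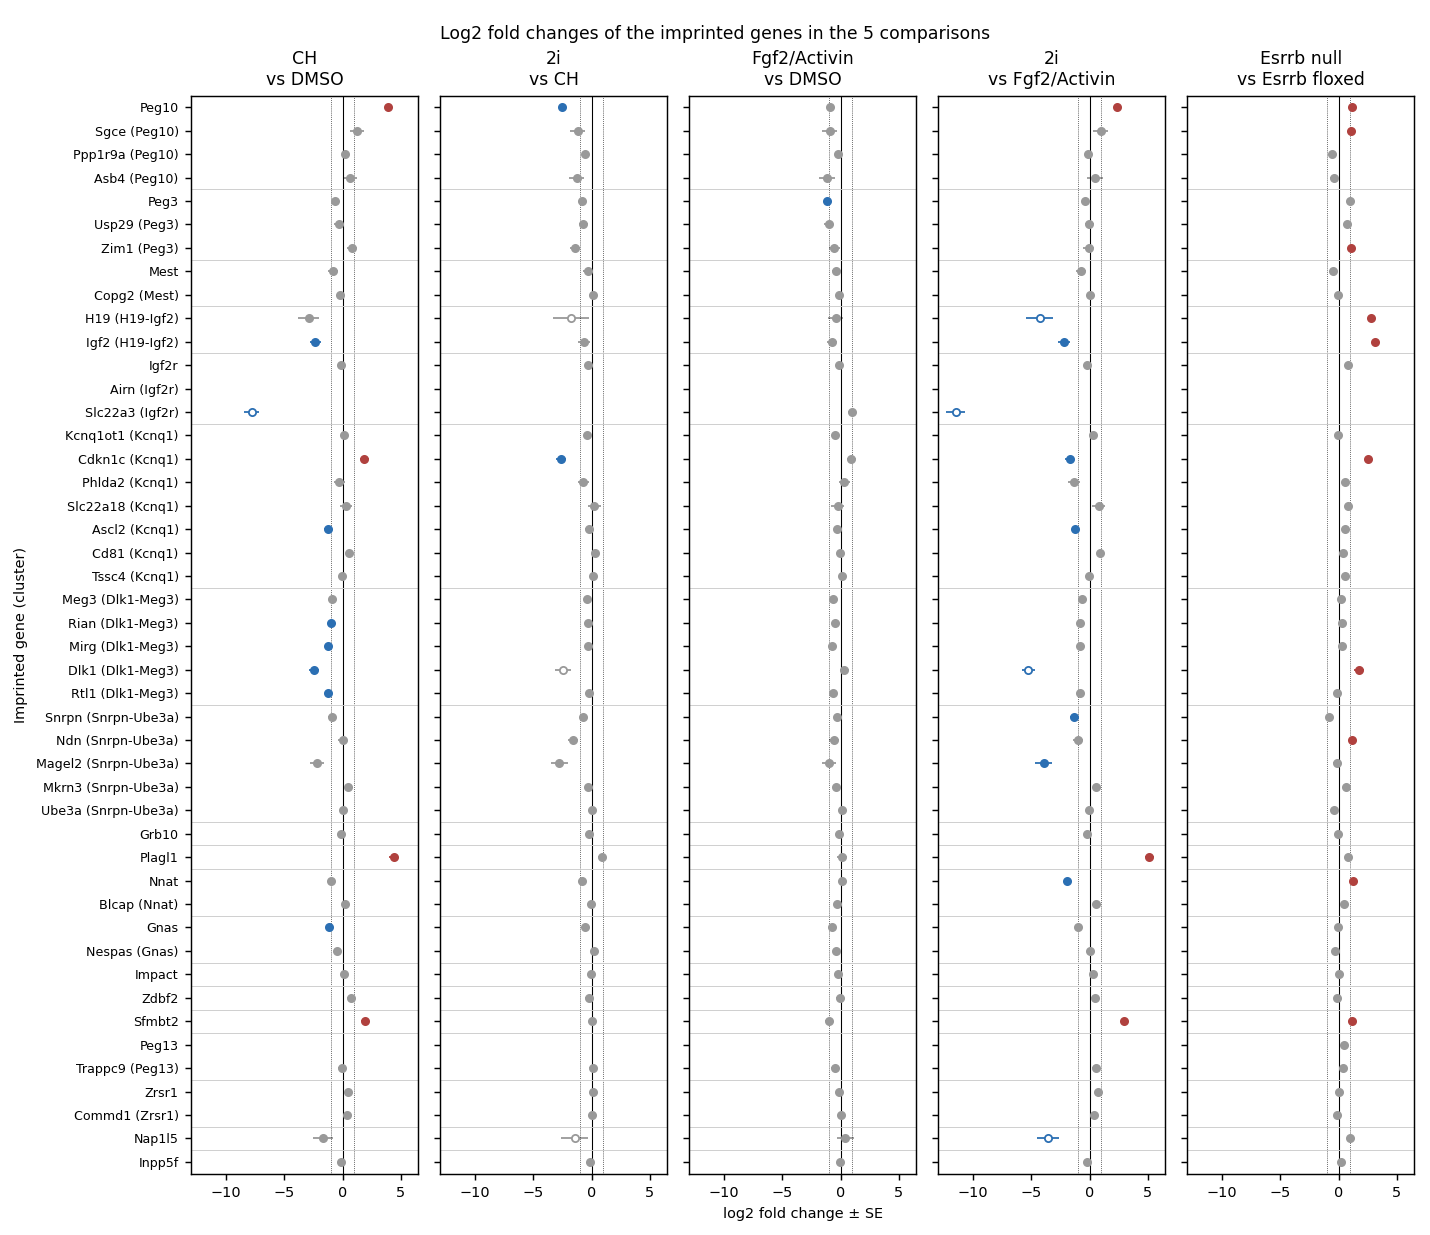
Log2 fold change ± SE (x axis) of the imprinted genes (y axis, grouped by cluster) in the 5 comparisons (panels), from edgeR's quasi-likelihood fit. Red and blue points passed the test and the minimum fold change (dotted lines at 1 and -1) as higher and lower, grey points did not, and open points had no sample above 3 counts in the lower group, so that their fitted value depends on the prior count. Called points lie on either side of 0 between CH and DMSO, and all 10 lie above 0 in the Esrrb panel. Slc22a3 is not drawn between 2i and CH, with 0 and 2 counts.

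The comparison of CH with DMSO asked what GSK3 inhibition does to cells that would otherwise leave the naive state. Peg10, a retrotransposon-derived gene needed in the placenta, was the most strongly expressed member that rose. Its level was 49.5, 41.5 and 46.8 CPM in DMSO and 678, 791 and 653 CPM in CH (log2 fold change 3.93 ± 0.12 (SE), adjusted p = 1.04e-08). The groups lay far apart, and Sgce, its divergently transcribed neighbour, was at 15.4, 4.09 and 3.64 CPM in DMSO and 30.7, 12.8 and 11.3 CPM in CH, with replicate 1 highest in both groups (log2 fold change 1.22 ± 0.62 (SE), adjusted p = 0.137). With the replicate number as a block Sgce passed the test (log2 fold change 1.35, adjusted p = 5.22e-05). The maternally expressed Ppp1r9a and Asb4 of the same cluster had log2 fold changes of 0.16 and 0.60 and were not called.

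Plagl1, a zinc finger factor, rose from 0.670, 0.811 and 1.69 CPM in DMSO to 34.1, 14.2 and 17.3 CPM in CH (log2 fold change 4.39 ± 0.40 (SE), adjusted p = 9.93e-06). All 3 CH samples lay above all DMSO samples. Sfmbt2, a Polycomb group protein known from trophoblast, was at 10.4, 15.7 and 14.99 CPM in DMSO and 30.3, 65.9 and 61.2 CPM in CH (log2 fold change 1.92 ± 0.31 (SE), adjusted p = 4.83e-04), again without overlap. Cdkn1c, the inhibitor of cyclin-dependent kinases p57Kip2, had 6.65, 7.49 and 8.70 CPM in DMSO and 49.3, 19.2 and 15.5 CPM in CH (log2 fold change 1.86 ± 0.40 (SE), adjusted p = 0.00312). Its CH samples were all higher, with replicate 1 far above the others. Of its exon bases, 30.7% are shared with an antisense gene, Gm44732, and reads there may be missing from its count. Without DMSO replicate 1 or 2 the call on Cdkn1c was lost (adjusted p up to 0.0138), and over the fits without 1 sample its log2 fold change ranged from 1.18 to 2.17.

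Among the members that fell in CH, Slc22a3, an organic cation transporter of the Igf2r cluster, went from 8.50, 5.05 and 4.91 CPM in DMSO to 0.0344, 0.0329 and 0 CPM in CH. This was 607 counts in the 3 DMSO samples against 2 counts in the 3 CH samples, a ratio of 267 after scaling (95% interval 73.7 to 2212, covering counting error only; adjusted p = 1.97e-05). Its neighbour Igf2r, the receptor that clears Igf2, had 130.3, 94.3 and 93.4 CPM in DMSO and 113, 94.1 and 90.6 CPM in CH, with overlapping groups. Airn, the noncoding RNA antisense to Igf2r, stayed under 0.1 CPM in all wild-type samples.

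All 5 genes of the Dlk1-Meg3 cluster had lower values in CH. Rian, a maternal noncoding RNA that hosts snoRNAs and miRNAs, was at 1006, 989 and 918 CPM in DMSO and 427, 525 and 518 CPM in CH (log2 fold change -1.003 ± 0.0909 (SE), adjusted p = 9.23e-06). Mirg, a maternal host of miRNAs, was at 72.6, 72.1 and 64.8 and 25.4, 33.9 and 31.2 CPM (log2 fold change -1.23 ± 0.12 (SE), adjusted p = 1.60e-05). Meg3, the first noncoding RNA of the maternal group, was at 721, 605 and 508 and 326, 358 and 301 CPM, and its log2 fold change of -0.92 did not pass the minimum (adjusted p = 9.32e-05). The groups of these 3 RNAs did not overlap. On the paternal side, Rtl1, a retrotransposon-derived gene of the placenta, fell from 7.51, 8.70 and 9.35 to 2.86, 4.08 and 3.73 CPM (log2 fold change -1.28 ± 0.21 (SE), adjusted p = 5.79e-04). Dlk1, a noncanonical Notch ligand, fell from 1.05, 2.21 and 2.03 to 0.344, 0.395 and 0.203 CPM (log2 fold change -2.47 ± 0.47 (SE), adjusted p = 0.00146). Rtl1 lies antisense to miRNA genes of the maternal side, which share 8.4% of its exon bases. The call on Rian, at the edge of the minimum, was lost without DMSO replicate 1 or 2 or CH replicate 1, where the log2 fold change was as small as -0.91.

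**Figure D3:**
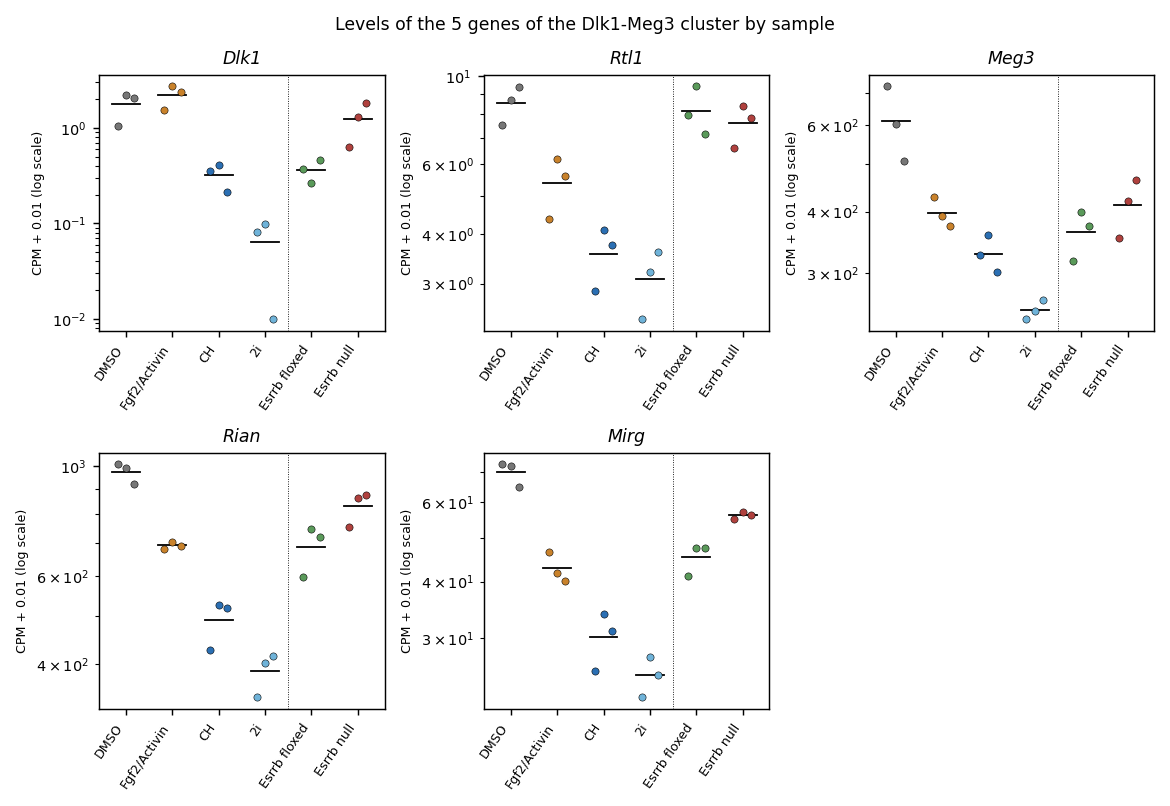
Levels of the 5 genes of the Dlk1-Meg3 cluster in each sample (points, left to right replicates 1 to 3) and their group means (bars), as CPM + 0.01 on a log scale, with the wild-type cultures left and the Esrrb fl/fl cells right of the dotted line. For all 5 genes every CH and 2i sample lies below every DMSO sample, and Dlk1 reaches 0 CPM in a 2i sample.

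Igf2, the paternally expressed fetal growth factor, fell from 5.04, 3.21 and 3.53 CPM in DMSO to 0.620, 0.725 and 1.01 CPM in CH (log2 fold change -2.34 ± 0.49 (SE), adjusted p = 0.00270). The call was lost without CH replicate 2 (adjusted p = 0.0140). H19, the maternal noncoding RNA of the same locus, was at 0.215, 0.593 and 0.345 CPM in DMSO and 0, 0.132 and 0 CPM in CH, without overlap. H19 was not called (log2 fold change -2.93 ± 0.89 (SE), adjusted p = 0.0203), but passed with the replicate block (log2 fold change -3.01, adjusted p = 0.00163) and without CH replicate 2 (adjusted p = 0.00637), the only CH sample with a count.

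Ascl2, a bHLH factor of trophoblast, was at 12.6, 21.6 and 10.3 CPM in DMSO and 5.75, 6.19 and 6.78 CPM in CH (log2 fold change -1.27 ± 0.31 (SE), adjusted p = 0.00655). The groups did not overlap, yet the call was lost without DMSO replicate 2 or any CH sample (adjusted p up to 0.0298). Gnas, the stimulatory G protein alpha subunit, was at 19.01, 14.5 and 17.3 and 6.16, 8.60 and 7.99 CPM (log2 fold change -1.18 ± 0.20 (SE), adjusted p = 6.37e-04). Of its exon bases, 22.0% are shared with antisense genes, among them Nespas. Reads on these bases may be missing, so the row, with 4209 counts over all samples, need not give the full level of Gnas. Nespas itself was at 2.15, 2.34 and 1.92 and 1.14, 1.52 and 1.87 CPM. Without replicate 1 of every group, Gnas and Rian stayed lower but missed the minimum, with -0.95 and -0.89 on the log2 scale.

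In the Snrpn-Ube3a cluster the paternal genes moved unequally. Magel2, a MAGE family protein, had 1.47, 9.45 and 11.96 CPM in DMSO and 1.10, 2.07 and 1.91 CPM in CH, with DMSO replicate 1 within the range of CH. It was not called (log2 fold change -2.18 ± 0.62 (SE), adjusted p = 0.0147) but passed with the replicate block (log2 fold change -1.95, adjusted p = 6.93e-04), by DESeq2's test and without DMSO replicate 1 (adjusted p = 0.000218). Snrpn, which encodes the ribonucleoprotein SmN, was at 82.4, 145 and 159.9 and 41.4, 81.1 and 80.7 CPM (log2 fold change -0.95, adjusted p = 0.0194), and the maternal ubiquitin ligase gene Ube3a at 71.5, 68.7 and 66.3 and 69.5, 67.2 and 70.8 CPM (log2 fold change -0.01).

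**Figure D4:**
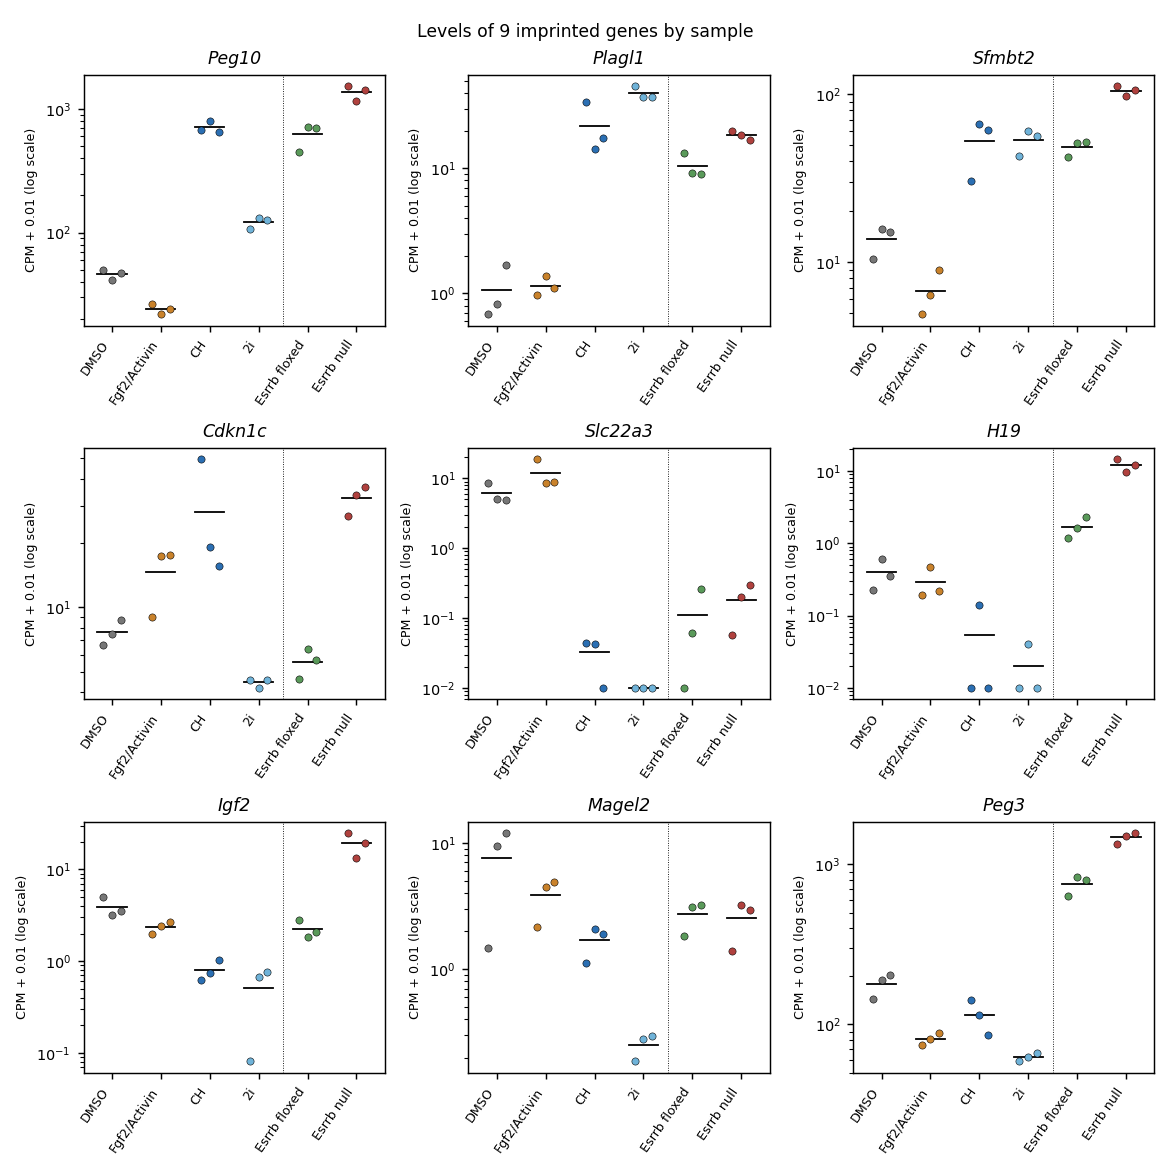
Levels of 9 imprinted genes in each sample (points, left to right replicates 1 to 3) and their group means (bars), as CPM + 0.01 on a log scale. Peg10, Plagl1 and Sfmbt2 are higher in every CH and 2i sample than in any DMSO or Fgf2/Activin sample, Slc22a3 is at or near 0 CPM in CH and 2i, and Igf2, H19 and Cdkn1c are higher in every Esrrb null than in any Esrrb floxed sample.

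Between 2i and CH, which differ by the MEK inhibitor, Peg10 and Cdkn1c were lower in 2i. Peg10 was at 106, 131 and 125 CPM in 2i (log2 fold change -2.55 ± 0.12 (SE), adjusted p = 1.43e-06), between DMSO and CH in every sample. Cdkn1c was at 4.55, 4.18 and 4.57 CPM in 2i (log2 fold change -2.66 ± 0.41 (SE), adjusted p = 0.00298), under every sample of the other 3 wild-type cultures. The call on Cdkn1c was lost without any 2i sample (adjusted p up to 0.0204). Plagl1, at 45.4, 37.2 and 37.00 CPM in 2i, lay above the CH samples (log2 fold change 0.86, adjusted p = 0.164). Sfmbt2, at 42.8, 60.6 and 56.4 CPM, overlapped with CH (log2 fold change 0.02).

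With the replicate block, 5 members were called lower in 2i than in CH, against 3.25% of all genes (1.67% without the block), the added 3 being Sgce (log2 fold change -1.15, adjusted p = 9.86e-04), Ndn (log2 fold change -1.70, adjusted p = 0.00196) and Magel2 (log2 fold change -2.86, adjusted p = 0.00306). Ndn, or necdin, a MAGE family protein next to Magel2, was at 8.78, 9.72 and 8.52 CPM in CH and 1.98, 3.70 and 3.15 CPM in 2i. Magel2 was at 0.176, 0.269 and 0.284 CPM in 2i. Neither gene overlapped between CH and 2i. Of the 44 members, 10 had a log2 fold change above 0 in this comparison, as had 49.4% of all genes.

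Between Fgf2/Activin and DMSO, where cells in both media lack CHIR99021, Peg3 was called lower. Peg3, a zinc finger protein, was at 145, 188 and 203 CPM in DMSO and 74.7, 81.4 and 88.6 CPM in Fgf2/Activin (log2 fold change -1.15 ± 0.17 (SE), adjusted p = 0.00322). The groups did not overlap, but the call was lost without any sample other than DMSO replicate 1 (adjusted p up to 0.0214). Usp29, which starts opposite Peg3 across the interval printed above, was at 4.02, 4.05 and 3.68 and 1.44, 2.79 and 1.65 CPM, also without overlap (log2 fold change -1.01, adjusted p = 0.204). Sfmbt2, at 4.87, 6.35 and 8.96 CPM, passed only with the replicate block (log2 fold change -1.05, adjusted p = 0.00124) and without replicate 1 of every group. Peg10, at 26.2, 21.8 and 24.1 CPM, lay under all DMSO samples but not past the minimum fold change (log2 fold change -0.95 ± 0.11 (SE), adjusted p = 7.02e-04). Rian and Mirg passed the adjusted p and not the minimum, with log2 fold changes of -0.50 and -0.72, and Meg3 had -0.63 (adjusted p = 0.0101). Slc22a3, at 18.6, 8.48 and 8.86 CPM, and Dlk1, at 1.53, 2.73 and 2.35 CPM, overlapped with DMSO.

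Between 2i and Fgf2/Activin, the media that hold cells at the naive and the primed end, 13 members were called. Plagl1 (log2 fold change 5.12 ± 0.41 (SE), adjusted p = 2.08e-06), Sfmbt2 (log2 fold change 2.98 ± 0.32 (SE), adjusted p = 2.00e-05) and Peg10 (log2 fold change 2.32 ± 0.12 (SE), adjusted p = 7.91e-08) were higher in 2i, each in all samples. Slc22a3 had 0 counts in the 3 samples of 2i and 1127 in those of Fgf2/Activin, which makes it at least 124-fold lower against a floor of 3 counts in each 2i sample (adjusted p = 3.87e-06). Dlk1 had 5 counts over the 2i samples (0.0706, 0.0896 and 0 CPM) against 200, a ratio of 40.8 (95% interval 17.2 to 127, counting error only; adjusted p = 2.58e-05). Magel2 was at 2.13, 4.42 and 4.92 CPM in Fgf2/Activin and much lower in 2i (log2 fold change -3.94 ± 0.74 (SE), adjusted p = 0.00104). For each of these genes the groups did not overlap.

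H19 had 1 count over the 2i samples against 26 in Fgf2/Activin, a ratio of 26.5 (95% interval 4.35 to 1086), and Nap1l5, a retrogene within Herc3, 5 counts against 61, a ratio of 12.4 (5.05 to 39.7). Both intervals cover counting error only. Nap1l5 was at 0.210, 0.865 and 0.984 CPM in Fgf2/Activin and 0.106, 0.0299 and 0.0315 CPM in 2i. Either call was weak (adjusted p = 0.00858 and 0.00945), H19 being lost without any of the 6 samples and Nap1l5 without any but Fgf2/Activin replicate 1 (adjusted p up to 0.0345 and 0.0399). Igf2 was at 1.98, 2.39 and 2.64 CPM in Fgf2/Activin and 0.0706, 0.657 and 0.756 CPM in 2i (log2 fold change -2.21 ± 0.50 (SE), adjusted p = 0.00354), and was lost without Fgf2/Activin replicate 2 or 3 (adjusted p up to 0.0131).

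The remaining genes called lower in 2i than in Fgf2/Activin moved less. Nnat, or neuronatin, was at 5.08, 3.66 and 4.32 CPM in Fgf2/Activin and 0.917, 1.22 and 1.23 CPM in 2i (log2 fold change -1.95 ± 0.22 (SE), adjusted p = 2.93e-05), whereas Blcap, whose intron holds Nnat, was at 17.2, 16.5 and 18.2 and 23.1, 24.9 and 27.2 CPM (log2 fold change 0.53). Snrpn was at 86.3, 115 and 115 and 33.8, 43.8 and 44.5 CPM (log2 fold change -1.38 ± 0.29 (SE), adjusted p = 0.00205), and its call was lost without 2i replicate 1 (adjusted p = 0.0103). It shares 34.1% of its exon bases, in part with Snurf, which the same transcript encodes. Cdkn1c was at 8.95, 17.3 and 17.6 CPM in Fgf2/Activin (log2 fold change -1.72 ± 0.40 (SE), adjusted p = 0.00416) and Ascl2 at 7.36, 15.5 and 14.1 CPM, against 4.37, 5.62 and 5.74 CPM in 2i (log2 fold change -1.23 ± 0.31 (SE), adjusted p = 0.00619). The calls on Cdkn1c and Ascl2 were lost without any of these samples but Fgf2/Activin replicate 1 (adjusted p up to 0.0183 and 0.0290). With the replicate block, Sgce (log2 fold change 1.02, adjusted p = 4.95e-04) and Phlda2 (log2 fold change -1.29, adjusted p = 3.50e-04) were also called, Phlda2 being a pleckstrin homology-like protein that limits placental growth, at 25.7, 14.8 and 14.6 CPM in Fgf2/Activin and 9.07, 6.45 and 6.46 CPM in 2i. Without Fgf2/Activin replicate 2, 8 members were called in place of 13, beside 3385 of 16807 genes in place of 3857 of 16413.

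Deletion of Esrrb, a nuclear receptor of the naive network, was examined in cells that were all in CH. Only the Esrrb null cells had been given the drug that activates Cre. Effects of that drug or of Cre cannot be told apart here from those of the deletion. The 10 members called were all higher in Esrrb null cells, led by Igf2, H19 and Cdkn1c. Igf2 was at 2.79, 1.81 and 2.08 CPM in Esrrb floxed and 24.98, 13.5 and 19.5 CPM in Esrrb null cells (log2 fold change 3.10 ± 0.26 (SE), adjusted p = 2.65e-05). H19 was at 1.19, 1.61 and 2.28 and 14.4, 9.53 and 11.99 CPM (log2 fold change 2.80 ± 0.24 (SE), adjusted p = 2.86e-05). Cdkn1c was at 4.59, 6.40 and 5.63 and 26.8, 33.6 and 36.7 CPM (log2 fold change 2.53 ± 0.15 (SE), adjusted p = 6.25e-06). The groups of these genes lay apart by more than their spread, and each call held without any 1 sample.

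In the Peg10 cluster, Peg10 was at 446, 719 and 703 CPM in Esrrb floxed and 1532, 1167 and 1422 CPM in Esrrb null cells (log2 fold change 1.13 ± 0.17 (SE), adjusted p = 5.91e-04), and Sgce at 9.76, 10.7 and 11.4 and 25.7, 20.01 and 21.6 CPM (log2 fold change 1.06 ± 0.12 (SE), adjusted p = 1.11e-04). The maternal genes of this cluster had lower values, Ppp1r9a with -0.60 and Asb4 with -0.42 on the log2 scale, and were not called. In the Peg3 cluster all 3 genes were higher in every Esrrb null sample. The maternal zinc finger gene Zim1 was at 2.22, 2.67 and 2.84 and 4.80, 5.26 and 5.83 CPM (log2 fold change 1.02 ± 0.16 (SE), adjusted p = 7.31e-04), while Peg3, at 633, 837 and 802 and 1346, 1508 and 1571 CPM, and Usp29, at 16.5, 17.6 and 17.1 and 23.8, 28.6 and 30.01 CPM, stayed under the minimum with 0.95 and 0.67 on the log2 scale (adjusted p = 8.18e-05 and 4.91e-04).

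Of the other called genes, Sfmbt2 was at 42.4, 50.9 and 51.5 CPM in Esrrb floxed and 112, 97.02 and 105 CPM in Esrrb null cells (log2 fold change 1.10 ± 0.0853 (SE), adjusted p = 1.70e-05). Nnat was at 8.88, 7.66 and 7.71 and 24.6, 15.2 and 16.97 CPM (log2 fold change 1.21 ± 0.19 (SE), adjusted p = 6.20e-04), Ndn at 3.82, 5.19 and 4.97 and 7.96, 10.5 and 12.7 CPM (log2 fold change 1.14 ± 0.19 (SE), adjusted p = 0.00109), and Dlk1 at 0.361, 0.252 and 0.456 and 0.623, 1.28 and 1.80 CPM (log2 fold change 1.76 ± 0.45 (SE), adjusted p = 0.00883). None of these groups overlapped. The noncoding RNAs of the Dlk1-Meg3 cluster were not called, Meg3, Rian and Mirg having 0.17, 0.26 and 0.29 on the log2 scale. Snrpn, at 128, 155 and 153 and 67.4, 94.9 and 83.3 CPM, Mest, an alpha/beta hydrolase family gene at 85.8, 92.4 and 97.9 and 67.4, 70.5 and 66.2 CPM, and Ube3a, at 84.8, 81.2 and 81.96 and 63.3, 65.4 and 66.3 CPM, were lower in every Esrrb null sample and passed the adjusted p (3.63e-04, 2.85e-04 and 3.68e-04) but not the minimum fold change. Without a minimum fold change, 19 of the 44 members were higher and 3 lower, against 24.6% and 19.9% of all genes.

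Several of these calls stood close to a fold change of 1 on the log2 scale or to the adjusted p of 0.01. Peg10 was lost without Esrrb floxed replicate 1 (0.93 on the log2 scale), Sgce (0.95) and Nnat (0.97) without Esrrb null replicate 1, Ndn (0.98) without Esrrb null replicate 3, and Zim1 without either Esrrb null replicate 3 or Esrrb floxed replicate 1 (as low as 0.93). Dlk1 was lost without any sample but Esrrb null replicate 1 (adjusted p up to 0.0376). Without replicate 1 of every group, Peg10 (0.85 on the log2 scale), Sgce (0.89), Zim1 (0.992) and Sfmbt2 (0.97) missed the minimum, while Mkrn3 and Nap1l5 were called higher.

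Markers of pluripotent cells were lower beside these calls. Their summed level was 2776 to 2915 CPM in Esrrb floxed and 1634 to 1820 CPM in Esrrb null cells. All 6 passed the adjusted p as lower, and Sox2, a core factor of pluripotent cells, also passed the minimum, at 292, 279.6 and 294 CPM in Esrrb floxed and 42.7, 63.7 and 58.6 CPM in Esrrb null cells (log2 fold change -2.41 ± 0.12 (SE), adjusted p = 3.24e-06). Their part in the results was not tested.

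Read by cluster, the calls of CH against DMSO fell on the Dlk1-Meg3 cluster most often, with 4 of 5 genes lower and 0 higher. In the Kcnq1 cluster, 1 of 7 genes was higher (Cdkn1c) and 1 lower (Ascl2), with Cd81 at 184, 133 and 121 CPM in DMSO and 233, 199 and 209.6 CPM in CH (log2 fold change 0.54). Kcnq1ot1, the paternal noncoding RNA of that cluster, had log2 fold changes of 0.14 between CH and DMSO and -0.06 between Esrrb null and Esrrb floxed cells. By listed parental copy, 1 of 22 maternal genes was higher and 5 lower between CH and DMSO, and 3 of 22 paternal genes higher and 3 lower. Between 2i and Fgf2/Activin the counts were 0 and 4 of 22 maternal and 3 and 6 of 22 paternal genes. Between Esrrb null and Esrrb floxed cells, 3 of 21 maternal and 7 of 23 paternal genes were higher. Of all genes tested, 7.51% were called higher and 10.2% lower between CH and DMSO, and 9.13% and 14.4% between 2i and Fgf2/Activin. In the Esrrb comparison these shares were 12.8% and 3.87%. The difference between the parental classes was not tested.

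Loci with steady levels in the wild-type cultures included Impact, the inhibitor of the kinase Gcn2, with 271 to 358 CPM over the 12 samples, Inpp5f, a phosphoinositide phosphatase, with 30.7 to 40.1 CPM, and Commd1 with 21.9 to 35.9 CPM. Mest ran from 20.9 to 108 CPM, Zdbf2 from 51.4 to 169.6 CPM and Trappc9, a subunit of a trafficking complex, from 25.6 to 63.3 CPM, and replicate 1 was the lowest (Mest, Zdbf2) or the highest (Trappc9) of the 3 in every wild-type culture. None of these 6 genes was called in any comparison.

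Factors that keep or set imprints were described beside the members, from lists that were chosen with earlier results of these data known. Of all genes, 7.51% were called higher and 10.2% lower between CH and DMSO, and 9.13% and 14.4% between 2i and Fgf2/Activin. Of 16 genes that protect imprints or are linked to it, 3 were called higher and 0 lower between CH and DMSO and again between 2i and Fgf2/Activin by edgeR's test and by DESeq2's (5 and 3 were lower at an unadjusted p under 0.05). They were Zfp57, which binds the methylated TGCCGC, at 173, 98.9 and 82.4 CPM in DMSO and 310.4, 379 and 402 CPM in CH (log2 fold change 1.61 ± 0.25 (SE), adjusted p = 4.04e-04), Dppa3, which shields methylated DNA in the early embryo (log2 fold change 3.71 ± 0.33 (SE), adjusted p = 7.78e-06), and Zfp42 (log2 fold change 3.21 ± 0.16 (SE), adjusted p = 1.27e-07). By contrast Dnmt1, the maintenance methyltransferase, ranged from 374 to 519 CPM over the wild-type cultures. In Esrrb null cells 0 of the 16 were called in either direction by edgeR's test or DESeq2's. Of all genes there, 12.8% were called higher and 3.87% lower. With any size of change allowed, 19.9% of all genes passed the adjusted p as lower and 24.6% as higher. At an unadjusted p under 0.05, 0 of the 16 were higher and 10 lower. The share of all genes at that unadjusted p was not computed, so the 10 cannot be read as many or few. Zfp57 was at 371, 363 and 343 CPM in Esrrb floxed and 218, 213 and 233 CPM in Esrrb null cells (log2 fold change -0.72). Of 6 genes for de novo methylation, Dnmt3a (log2 fold change -2.12 ± 0.16 (SE), adjusted p = 2.80e-06) and Dnmt3b (log2 fold change -1.996 ± 0.23 (SE), adjusted p = 5.85e-05) were lower in CH than in DMSO. In the list of methylcytosine oxidation and repair, Tet2 was higher (log2 fold change 1.64 ± 0.28 (SE), adjusted p = 7.58e-04) and Tet3 lower (log2 fold change -2.02 ± 0.23 (SE), adjusted p = 5.34e-05) in CH, and Tet2 was lower in Esrrb null cells (log2 fold change -1.13 ± 0.12 (SE), adjusted p = 7.76e-05).

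A further list of 40 imprinted genes outside the members, of which 33 were tested in the wild-type cultures and 31 in the Esrrb fl/fl cells, gave 5 higher and 6 lower between CH and DMSO, 1 and 1 between 2i and CH, 0 and 0 between Fgf2/Activin and DMSO (7 and 3 at an unadjusted p under 0.05, 0 and 0 by DESeq2's test), 8 and 6 between 2i and Fgf2/Activin, and 11 and 3 in the Esrrb comparison, all by edgeR's test. The shares of all genes called higher and lower were 7.51% and 10.2%, 0.317% and 1.67%, 0.902% and 0.347%, 9.13% and 14.4%, and 12.8% and 3.87% in turn. Cobl, an actin nucleator next to Grb10, had log2 fold changes of 3.72 between CH and DMSO and -2.61 between Esrrb null and Esrrb floxed cells. Gatm, an enzyme of creatine synthesis, had -3.17 and 2.30, and Slc38a4, an amino acid transporter, had 2.12 in Esrrb null cells. All 5 of these values passed the test (adjusted p between 1.71e-08 and 5.54e-04).

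Markers of mesendoderm moved with 4 of the comparisons. Their summed level was 8.98 to 14.03 CPM in DMSO, 13.6 to 23.5 CPM in Fgf2/Activin, 470 to 710 CPM in CH, 87.3 to 121 CPM in 2i, 77.4 to 98.2 CPM in Esrrb floxed and 439 to 568 CPM in Esrrb null cells. T (Brachyury) was at 0.483, 0.343 and 0.575 CPM in DMSO, 672, 506 and 442 CPM in CH, 35.5, 45.7 and 44.9 CPM in Esrrb floxed and 309, 444 and 442 CPM in Esrrb null cells, and of the 7 markers 4 were called higher in CH and 4 in Esrrb null cells, while Gsc and Mesp1 stayed under 0.5 CPM. The remaining marker, Eomes, was called lower in CH than in DMSO (log2 fold change -2.08 ± 0.40 (SE), adjusted p = 0.00158). Between 2i and CH, 0 of the 7 were called higher and 4 lower, and between 2i and Fgf2/Activin, 2 higher and 2 lower. The summed trophoblast markers were at 21.2 to 30.7 CPM in DMSO, 50.3 to 96.95 CPM in CH, 22.3 to 24.2 CPM in Fgf2/Activin and 14.9 to 18.1 CPM in 2i, most of it Cdx2 in CH, which gastrulating cells also express. They were at 26.7 to 36.5 CPM in Esrrb floxed and 39.2 to 50.3 CPM in Esrrb null cells, without overlap, with Cdx2 (log2 fold change 1.11) and Krt7 (log2 fold change 4.30) called higher. The summed primitive endoderm markers were low, at 3.57 to 4.79 CPM in DMSO, 2.35 to 2.58 CPM in CH, 2.46 to 3.27 CPM in Fgf2/Activin and 1.37 to 1.58 CPM in 2i. In CH against DMSO, Foxa2 was called higher and Sox7 lower. The same sum was 1.76 to 3.05 CPM in Esrrb floxed and 4.22 to 7.25 CPM in Esrrb null cells, with Pdgfra and Gata4 called higher and Sox7 lower. The summed fibroblast markers, led by Thy1 in each group mean, were at 16.5 to 49.6 CPM in DMSO, 5.64 to 7.81 CPM in CH, 13.4 to 25.9 CPM in Fgf2/Activin and 2.29 to 2.63 CPM in 2i, with 17.8 to 25.9 CPM in Esrrb floxed and 8.20 to 11.2 CPM in Esrrb null cells. Peg10 moved in the direction of the mesendoderm sum in these 4 comparisons and Cdkn1c in 3 of them. Between Fgf2/Activin and DMSO the mesendoderm sums overlapped, with 1 marker called higher and 0 lower. There Peg10 was lower (log2 fold change -0.95) and Cdkn1c higher (0.93), and neither was called. Igf2 and Dlk1 were called lower with the fibroblast sum between CH and DMSO and between 2i and Fgf2/Activin. They were called higher against it in Esrrb null cells. That sum was mostly Thy1, with 6592 counts over the 18 samples against 583 for Col1a2, and only 2 of the 6 fibroblast markers were tested. In each of the 2 wild-type comparisons named, 0 were called higher and 1 lower, and in Esrrb null cells 1 higher and 1 lower. Whether any cells of the types named had a part in the results was not tested. In these bulk samples, a change in the share of cells that express a gene and a change in its level per cell cannot be told apart.

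Set side by side without a test, the 2 lines stood at different levels for several members. Grb10, an adaptor that restrains insulin and Igf1 receptor signalling, ranged from 224 to 397 CPM in the 12 wild-type samples and from 7.34 to 12.2 CPM in the 6 Esrrb fl/fl samples. Peg3 ranged from 58.8 to 203 and from 633 to 1571 CPM, and Peg13, the paternal noncoding RNA within Trappc9, from 0 to 0.0812 and from 1.62 to 2.61 CPM. Impact had 128 to 147 CPM and Inpp5f 8.001 to 11.2 CPM in the Esrrb fl/fl cells, under their wild-type ranges. H19 ranged from 0 to 0.593 CPM in the wild-type samples. Within CH alone, the mean of the 3 wild-type samples was 30.8 times that of the Esrrb floxed samples for Grb10, and the Esrrb floxed mean was 6.61 times the wild-type mean for Peg3 and 5.45 times for Usp29. Cell line, passage, time and library set cannot be told apart here.

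Replicate 1 stood apart from replicates 2 and 3 in the wild-type cultures. It was the lowest of the 3 in all 4 cultures for 7 of the 44 members tested (Mest, Rtl1, Snrpn, Magel2, Grb10, Zdbf2 and Sfmbt2), against 18.5% of all genes, and the highest in all 4 for 9 members, against 21.2% of all genes. Without replicate 1 of every group, an alternative chosen after the data were seen, 15 members were called between CH and DMSO, 6 between 2i and CH, 4 between Fgf2/Activin and DMSO, 18 between 2i and Fgf2/Activin, and 8 in the Esrrb comparison. The share of all genes called in either direction was 23.1%, 4.67%, 3.04%, 27.6% and 17.2% in these comparisons in turn, against 17.7%, 1.99%, 1.25%, 23.5% and 16.7% with all samples.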

How the data were processed

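RNA-seq counts of 18 samples were used, 3 in each of 6 groups assigned from the labels. The authors aligned reads to mm10 with TopHat2, counted them with HTSeq without regard to strand on Ensembl genes of GRCm38, and deposited the raw counts of 49671 identifiers; 49412 were found in the GENCODE annotation used for symbols and exons. The annotation release is not given in the sources used here. Where exons of 2 genes overlap on opposite strands, reads on the shared bases cannot be told apart. Such reads may be counted for neither gene. Snurf, with 100% of its exon bases shared, had 0 counts, while Snrpn, which shares bases with it, had 44748. The totals per sample set the precision of genes with few counts.

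Genes passing filterByExpr were tested with edgeR 4.0.16 (TMM, glmQLFit, glmQLFTest) in R 4.3.3, the 12 wild-type samples in 1 fit and the 6 Esrrb fl/fl samples in another. A call needed a Benjamini-Hochberg adjusted p under 0.01 and a log2 fold change above 1 or below -1. CPM and RPKM were computed from the deposited counts. Figures were drawn with matplotlib 3.10.9. The test was tried on simulated counts first.

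The members and lists were chosen with earlier results of these data known. Named members are those called in at least 1 comparison, the member with the highest mean RPKM of each locus, and those with under 10 counts; others named (Usp29, Meg3, Airn, Kcnq1ot1, Ppp1r9a, Asb4, Ube3a, Sgce, Phlda2 and the members shown for their overlap, level or replicate order) were singled out after their values were seen.

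Replicate numbers come from the titles. Deviations from the group means of same-numbered samples correlated in every pair, at 0.39 to 0.84 (mean 0.60, 18 pairs, 10478 genes) in the wild-type cultures and 0.39 to 0.57 (mean 0.45, 3 pairs, 10259 genes) in the Esrrb fl/fl cells. Samples with different numbers ran from -0.80 to 0.74 (mean -0.23, 36 pairs) and from -0.51 to 0.45 (mean -0.18, 6 pairs). Replicates 2 and 3 of different groups also correlated, such as CH replicate 2 with 2i replicate 3 at 0.74. These values set replicate 1 apart but do not show how replicates 2 and 3 pair, so the block rests on the titles. The block was fitted as an alternative, as were DESeq2's size factors and test (DESeq2 1.42.0), no low-count filter, no minimum fold change, only the 6 samples compared, and each sample left out in turn.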

Additional observations from a re-analysis of the deposited data

How the results depend on the processing

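The numbers of members called kept within 1.5 times of the reported ones (12, 2, 1, 13 and 10 for CH against DMSO, 2i against CH, Fgf2/Activin against DMSO, 2i against Fgf2/Activin and Esrrb null against Esrrb floxed) under DESeq2's size factors and without a low-count filter. Between 2i and CH, DESeq2's test called 4, the replicate block 5, the fit of only the 6 samples 1 and the fit without replicate 1 of every group 6 members. Among all genes these called 605 of 29767, 672 of 16413, 100 of 15062 and 768 of 16428 in turn. Between Fgf2/Activin and DMSO, 4 members were called with no minimum fold change, 2 with the replicate block, 0 with only the 6 samples and 4 without replicate 1 of every group. Among all genes these were 295 of 16413, 424 of 16413, 87 of 15455 and 499 of 16428 in turn. With no minimum fold change, 21 members were called between 2i and Fgf2/Activin and 22 in the Esrrb comparison, beside 6193 of 16413 and 6621 of 14893 genes. The cause was not tested, except that dropping a minimum can only add calls. Leaving out 1 sample at a time gave 10 to 13, 1 to 3, 0 to 1, 8 to 13 and 7 to 10 member calls in the 5 comparisons. Among all genes the same fits gave 2350 to 2862, 144 to 275, 112 to 171, 3347 to 3575 and 2183 to 2460 calls. Without replicate 1 of every group, 15, 6, 4, 18 and 8 members were called. No log2 fold change of a called member turned its direction under any alternative run. The replicate block added the 9 calls given beside the results and changed no other call. Of the 288 levels per length, 284 moved by less than 1 SD under DESeq2's size factors and 4 by more, those of Usp29, Copg2, Tssc4 and Ube3a in Esrrb floxed cells. Depth limits H19, Dlk1, Nap1l5, Slc22a3 and Airn, which have few counts in at least 1 group.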
